A study of Schizosaccharomyces pombe with 15 samples.

Results

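U6 is the small nuclear RNA at the catalytic centre of the spliceosome, and in Schizosaccharomyces pombe, fission yeast, its gene ends in a run of Ts that gives the RNA a 3′ end of Us. The ends described here left that run for 1 or more As and then carried at least 1 further U, so they read as an A tail followed by Us. They were chosen by sequence alone: the end held only T and A, began with T, had a T after an A, and had at most 14 nt after its leading T run. Over the 19 deposited files 1227 distinct ends with 107411 reads met this rule, out of 77768 distinct ends with 22706490 reads in all. The 141 distinct ends made of Ts followed by As alone, with 4890098 reads, are called pure A-tailed ends below and are the reference for the ratios given.

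U6 ends are shaped by enzymes that add and remove bases. Mpn1 (USB1 in humans) is a 3′ to 5′ exonuclease that trims the U6 end and leaves a cyclic phosphate, and Rrp6 is the exonuclease of the nuclear exosome. Cid14 is the poly(A) polymerase of the TRAMP complex, which adds short A tails to nuclear RNAs, and Cid11, Cid12 and Cid16 belong to the same family of nucleotidyltransferases as the uridyltransferase Cid1. T4 polynucleotide kinase (PNK) can remove a 3′ phosphate, which lets an adapter be ligated to ends that carry one.

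The study compared U6 3′ ends of mutants with those of wild type (wt). Of the 15 libraries, 11 came from untagged strains: wt (strain CAF13), rrp6Δ (CAF374), mpn1Δ (CAF41), mpn1Δrrp6Δ (CAF375), cid14Δ (CAF382), cid14Δmpn1Δ (CAF383), cid11Δ (CAF118), cid12Δ (CAF28) and cid16Δ (CAF119), with a second library without PNK for wt and for rrp6Δ. The other 4 came from strains that carry a tagged U6 beside their own: tU6-wt (CAF585), tU6-C36A (CAF586), mpn1Δ tU6wt (CAF587) and mpn1Δ tU6-C36A (CAF588), each with 1 file for the endogenous and 1 for the tagged U6. C36A is the labels' name of a substitution in the tagged copy. All strains were grown to log phase in YES medium at 30 °C with shaking at 150 rpm, and all libraries but the 2 named had PNK. The labels give 1 library per strain and treatment and do not say whether a strain is 1 clone, so a difference between single libraries has no replicate check. Only U6 was amplified, so the deleted genes themselves could not be checked.

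The sequences that carry the results are given first. An end is named by its runs, so U5A1U1 has 5 Us, then 1 A, then 1 U. They are the commonest ends of single files and the ends that differed most between files. The leading T run is in lower case, and capitals mark the A run and what follows it, read as cDNA from 5′ to 3′.
U4A1U1: ttttAT
U5A1U1: tttttAT
U5A1U3: tttttATTT
U5A2U2: tttttAATT
U4A2U1: ttttAAT
U3A1U2: tttATT
U3A2U1: tttAAT
U3A3U1: tttAAAT
U1A2U2: tAATT
U1A1U3: tATTT
U1A7U1: tAAAAAAAT
The genome does not encode these ends directly, since the base after the T run of the U6 gene is C. In the RefSeq genome ASM294v3 the end of the gene lies on the minus strand at chrI:2562251-2562294, shown here with the 9 Ts of the run, at 2562266 to 2562274, in capitals.
U6 gene end: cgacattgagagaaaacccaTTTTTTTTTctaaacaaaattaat
Over all files 3585 reads ran on into the sequence after the run, and 94.9% of them held exactly 9 Ts before it.

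Most of the distinct ends were rare. Of the 1227, 524 had a single read over all files, 639 occurred in 1 file only and held 0.758% of the reads of all A-then-U ends, and 207 had at least 20 reads. The 8 ends found in all 19 files were U1A1U3, U2A1U2, U2A1U3, U3A1U1, U4A1U1, U4A1U2, U4A2U2 and U5A1U2, so both short and full leading runs were present in every strain. At the length limit, 40 ends of exactly 14 nt held 138 reads, and 39 ends of the same pattern with 15 nt held 218 reads. All longer ends of the pattern came to 139 ends and 616 reads.

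Depth, as reads that carry an end sequence, ran from 408281 to 3966962 per file. Single ends are given in RPM, reads per 1000000 reads with an end sequence. A share of 0 in the shallowest file allows up to 0.000735% of reads. Intervals are exact (Clopper-Pearson) at 95%, and intervals and floors cover counting error only, since PCR reads without molecular identifiers are not independent molecules. Reads with an uncalled base (N) made up at most 0.000142% of each file in the set of wt, rrp6Δ, mpn1Δ, cid14Δ and their double deletions, but 0.0217% to 0.0244% in cid11Δ, cid12Δ, cid16Δ and wt without PNK. The files of the tagged strains lay between, at 0.00249% to 0.00598%. The 3 Cid1-family deletions thus stood with wt without PNK rather than with wt in this measure. Their values are given beside both, since the deletion and the set cannot be told apart, and wt without PNK also differs from them in treatment. The comparison of all PNK-treated libraries without and with mpn1 mixed these levels of N reads. Between single libraries a difference is called only where it was at least 2-fold and the 95% intervals did not overlap.

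A-then-U ends were a small share of U6 in every untagged strain treated with PNK. They made up 0.237% of reads in wt (95% interval 0.227% to 0.247%, 2035 reads), 0.314% in rrp6Δ, 0.381% in mpn1Δ and 0.381% in mpn1Δrrp6Δ. In cid14Δ, which lacks the TRAMP poly(A) polymerase, the share was 0.108% (0.0989% to 0.118%, 486 reads), 2.19-fold below wt and the lowest of the untagged strains. In cid14Δmpn1Δ it was 0.319%, so that low share was not seen without mpn1. The Cid1-family deletions had 0.314% (cid11Δ), 0.239% (cid12Δ) and 0.316% (cid16Δ). The endogenous U6 of the tagged strains had 0.0967% in tU6-wt, 0.168% in tU6-C36A, 0.370% in mpn1Δ tU6wt and 0.373% in mpn1Δ tU6-C36A. Of the 6 single deletions, cid14Δ alone passed the limit against wt in this share. With a leading run of 4 to 7 Us only, mpn1Δ passed it (2.99-fold) and cid14Δ did not (0.612-fold). With each end counted once, as a share of distinct ends, cid14Δ did not pass it either (0.502-fold). The 5 libraries without mpn1 lay between 0.319% and 0.381%, and the 8 PNK-treated libraries with it between 0.0967% and 0.316%. These values did not overlap, but the gap was within counting error. The interval of cid14Δmpn1Δ, 0.303% to 0.336%, held the values of cid16Δ, rrp6Δ and cid11Δ.

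Set against the A-tailed ends, the order was another one. Pure A-tailed ends made up 4.55% of reads in wt, 39.1% in rrp6Δ and 76.5% in mpn1Δ, so A-then-U shares at most 1.61-fold apart stood beside A-tail shares that differed far more. For 100 pure A-tailed reads there were 5.20 A-then-U reads in wt (4.97 to 5.44), 0.803 in rrp6Δ and 0.498 in mpn1Δ. The ratio was thus 6.48-fold lower in rrp6Δ and 10.4-fold lower in mpn1Δ than in wt, both past the limit. When reads were ignored and every end seen at least 2 times counted once, the direction turned, to 1.09-fold in rrp6Δ and 1.30-fold in mpn1Δ. That count compares numbers of distinct ends at unequal depths, a different quantity from the ratio of reads. The ratio of reads also takes in ends with a lone A inside a T run, 1000 reads in wt beside 2035 A-then-U reads. Whether those came from A tails or from wrong bases in T runs was not tested. In cid14Δ pure A-tailed ends were 5.39% of reads and the ratio was 2.01, which was 2.59-fold lower than in wt. The ratio was 13.4 in cid11Δ (2.58-fold higher than in wt), 7.66 in cid12Δ (1.47-fold, not past the limit) and 15.3 in cid16Δ (2.94-fold higher). Their pure A-tailed ends were only 2.34%, 3.12% and 2.07% of reads, below wt, and against the ratio of 8.71 in wt without PNK none of the 3 passed the limit.

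The ends differed from pure A-tailed ends in where the A run began. In wt 57.2% of the A-then-U reads had a leading run of only 1 to 3 Us, against 10.3% of the pure A-tailed reads, and the mean leading run was 3.18 against 4.60 nt. In mpn1Δ the same values were 20.3% against 1.30%, and 4.42 against 5.25 nt. The A-then-U reads had the shorter mean leading run in all 19 files, between 2.33 and 5.02 nt, with 4.17 to 5.57 nt for the pure A-tailed reads. Among the untagged strains it was longest in the 3 without mpn1, at 3.81 to 4.47 nt, and shortest in cid16Δ, at 2.55 nt.

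Most of the ends had a simple build. Between 82.0% and 98.9% of the reads of each file had a single A run followed by a single U run, and 82.8% to 99.7% ended in T. Ends that returned to A had 436 RPM in rrp6Δ, 423 in mpn1Δ and 656 in mpn1Δrrp6Δ, above wt with 93.1 and cid14Δ with 75.8. In every file at least 85.3% of the reads that ended in A differed by 1 base from a pure end of the same length, and pure A-tailed ends were 39.1% to 76.5% of reads in those 3 strains. Whether single wrong bases in A-tailed reads account for them was not tested.

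Grouped by leading run, number of As and last base, the members fell into 169 groups, 20 of which held at least 5% of the A-then-U reads of some file. The group U5A1 ending in U, in which a single A follows 5 Us, reached 5% in 16 of the 19 files and ranged from 1.51% to 69.4% of the reads. U3A1 and U4A2 ending in U reached it in 11 files each. U4A1 ending in U reached it in 9 files and was highest in cid14Δ, at 25.9%. The groups whose last base was A reached 5% once, with U3A1 in mpn1Δ tU6wt at 8.66%.

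The number of distinct ends followed depth and strain. At a common depth of 408281 reads, wt would show 139 distinct A-then-U ends, rrp6Δ 183, mpn1Δ 170, mpn1Δrrp6Δ 192, cid14Δ 68.0 and cid14Δmpn1Δ 105. The Cid1-family deletions would show 188 (cid11Δ), 208 (cid12Δ) and 138 (cid16Δ), and wt without PNK 405. The files of the tagged strains would show only 36.2 to 89.1, and in 7 of these 8 files 3 ends held at least 51.7% of the A-then-U reads.

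The 4 members below show how leading run and A number divided the untagged libraries. U5A1U1 had 118 RPM in wt, 114 in cid14Δ, 378 in rrp6Δ, 684 in mpn1Δ, 492 in mpn1Δrrp6Δ and 784 in cid14Δmpn1Δ. It had 37.2, 43.1 and 30.4 RPM in cid11Δ, cid12Δ and cid16Δ. Without PNK it had 297 RPM in wt and 457 in rrp6Δ, so the libraries without mpn1 were the highest and the Cid1-family deletions the lowest. U4A1U1, with 1 U fewer, followed a flatter course: 192 RPM in wt, 161 in cid14Δ, 240 in rrp6Δ, 317 in mpn1Δ, 274 in mpn1Δrrp6Δ and 493 in cid14Δmpn1Δ, with 38.6 to 50.8 in the Cid1-family deletions. U3A2U1 divided them otherwise, with 67.5 RPM in wt, 42.5 in rrp6Δ, 49.2 in mpn1Δ and 60.8 in mpn1Δrrp6Δ, but 2.23 in cid14Δ and 9.09 in cid14Δmpn1Δ. Both libraries without cid14 were thus the lowest for this 2-A member, whether mpn1 was present or not. U3A3U1 had 47.7 RPM in wt, 39.7 in both rrp6Δ and mpn1Δ, 33.1 in mpn1Δrrp6Δ, and 0 reads in cid14Δ and 1 in cid14Δmpn1Δ. In the Cid1-family deletions it had 97.3 to 166 RPM, and 326 in wt without PNK.

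Without mpn1 the share of these ends was somewhat higher and their ratio to A-tailed ends was lower. Against its partner with mpn1, the share was higher by 0.144 percentage points in mpn1Δ, 0.0664 in mpn1Δrrp6Δ, 0.211 in cid14Δmpn1Δ, 0.274 in mpn1Δ tU6wt and 0.204 in mpn1Δ tU6-C36A. The mean difference was 0.180 ± 0.0783 points (SD, n = 5 pairs), higher in 5 of 5 pairs, with an exact two-sided sign-flip p of 0.0625, the smallest that 5 pairs allow. In the tU6-C36A pair the rise rested on 1 end. U1A7U1 had 2394 RPM without mpn1 and 0 with it, more than the whole difference of that pair. In the untagged libraries without mpn1 it had at most 3.97 RPM. The ratio was lower in 5 of 5 pairs, and the mean change was -2.38 ± 1.63 A-then-U reads per 100 A-tailed reads (SD, n = 5), with the same exact p of 0.0625. Over all 13 PNK-treated libraries the 5 without mpn1 had a mean share 0.140 points above the 8 with it (exact two-sided permutation p = 0.00777, adjusted over the 2 outcomes 0.0155). Their mean ratio differed by -5.84 (exact permutation p = 0.0264, adjusted 0.0264). Once the 3 Cid1-family deletions were left out it differed by -2.38 (exact permutation p = 0.00794, the smallest that 5 against 5 allows). These are the libraries of the 5 pairs with the pairing ignored, so this p adds no evidence beyond the paired test. Within the 6 untagged PNK-treated libraries with at most 0.000142% N reads the differences were 0.140 points and -2.18, each at the smallest exact permutation p of 3 against 3, 0.1. With each end counted once, a comparison of distinct ends and not of reads, the ratio difference did not pass the threshold (-27.2, exact permutation p = 0.584). In that count its mean over the pairs turned to 19.3. With 2 or more As the ratio difference was -74.8 (exact permutation p = 0.0536). The share difference did not pass the threshold once the commonest end of each file was left out (difference 0.0440, exact permutation p = 0.416) or only ends with 2 or more As were kept (0.0165, p = 0.733).

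The lower ratio was also seen for A tails that began after 4 to 6 Us, and less uniformly for shorter leading runs. After 4 to 6 Us with any number of As, wt had 2.56 A-then-U reads per 100 pure reads of the same start and mpn1Δ 0.407. This ratio lay between 0.470 and 3.85 in the 8 libraries with mpn1 and between 0.190 and 0.429 in the 5 without it. The values did not overlap, but the intervals at the edge did, with 0.445 to 0.497 in rrp6Δ and 0.404 to 0.455 in mpn1Δ tU6wt. For a single A after 4 to 6 Us the ratio was lower without mpn1 in 4 of 5 pairs. There the groups overlapped, with 0.232 to 1.82 with mpn1 and 0.0987 to 0.372 without. For a single A after 1 to 3 Us it was lower in 3 of 5 pairs, all untagged, and higher in the others (23.7 to 155 in the tU6-wt pair, 139 to 217 in the tU6-C36A pair). The 155 and 217 rest on 107 and 52 pure reads, and U3A1U1A1 gave 128 of the 166 reads behind the 155. For any As after 1 to 3 Us it was lower in 4 of 5 pairs, with up to 1216 without mpn1 against at most 613 with it. The 1216 is 1544 reads over 127 pure reads, and 1426 of the 1544 were U1A7U1. The 613 is 754 over 123, and 473 of the 754 were U3A2U1. Single A after 4 to 6 Us gave 1.82 in wt, 0.328 in rrp6Δ, 0.302 in mpn1Δ and 1.18 in cid14Δ. After 1 to 3 Us and 1 A they were 15.3 in wt, 7.81 in rrp6Δ, 4.28 in mpn1Δ and 10.3 in cid14Δ. A short leading run thus went with a higher ratio in each of these 4 strains. With 2 As the ratio in wt was higher still, at 102 after 1 to 3 Us (301 against 294 reads) and 13.7 after 4 to 6 Us, but in cid14Δ it was 9.09 after 1 to 3 Us, no higher than with 1 A. In wt, then, reads with 1 to 3 Us, 2 As and a further U were as many as reads that stopped after the 2 As.

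Single members differed in both directions between mpn1Δ and wt. U5A1U1, 1 U longer than the A-tailed end U5A1, rose from 101 reads in wt (118 RPM) to 793 in mpn1Δ (684 RPM), where it was 18.0% of the A-then-U reads. U6A1U1 had 33.8 RPM in wt and 261 in mpn1Δ. Some members with a short leading run had lower values: U1A1U3 had 18.6 RPM in wt and 4.31 in mpn1Δ, and U2A3U1 31.4 and 5.18. Of the 55 members with at least 20 reads over both libraries, 18 were higher and 14 lower in mpn1Δ. Of all ends with that many reads, 37.5% were higher and 29.5% lower, so the members' shares of 32.7% and 25.5% were near those of all ends.

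Across the 5 libraries without mpn1 and the 8 with it, 1 of 162 members was higher without overlap and 0 were lower. Over all ends the shares were 0.623% higher and 0.401% lower, so the members did not stand out. The member was U1A1U3A1 (tATTTA), named here after its values were seen, with 13.6 to 71.4 RPM without mpn1 and 0 to 11.3 with it. It differs by 1 base from a pure end of its length.

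In rrp6Δ the A-then-U ends kept their number of As and their final U run, while leading run and last base differed from wt. The share was 1.33-fold that of wt and not past the limit, 44.3% of the reads had 2 or more As against 47.6% in wt, and 13.6% of the single-run ends closed with 3 or more Us against 12.8%. Reads that ended in A were 13.9% of the class against 3.93%, ends with a single A run and a single U run 84.7% against 94.6%, and leading runs of 1 to 3 Us 43.4% against 57.2%. The commonest member was U5A1U1, with 267 reads (378 RPM), followed by U4A1U1 with 169 (240 RPM against 192 in wt). U2A2U1 was at 5.67 RPM in rrp6Δ against 53.6 in wt. Of 44 members with enough reads, 7 were higher and 5 lower in rrp6Δ. These are 15.9% and 11.4% of the members, beside 29.3% and 10.4% of all ends. In cells that also lacked mpn1, deletion of rrp6 moved neither the share (0.381% in both) nor the ratio (0.502 against 0.498) past the limit.

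In cid14Δ the members with more than 1 A were nearly all missing. In wt 968 of 2035 A-then-U reads, 47.6%, had 2 or more As before the next U, and in cid14Δ 32 of 486, 6.58%. Among ends 2 or more bases from every pure end that part was not past the limit, at 0.787-fold with mpn1 and 0.920-fold without it. An end with a single A between 2 U runs is 1 base from all Ts, so that set leaves such ends out. The part with 2 or more As is then high by construction and cannot decide the cid14 difference. As a share of all reads, ends with 2 or more As were 0.113% in wt and 0.00714% in cid14Δ, 15.8-fold lower and past the limit. Members with a single A were 0.124% of reads in wt and 0.101% in cid14Δ, a 1.23-fold difference that was not past it. U3A2U1 had 67.5 RPM in wt and 2.23, a single read, in cid14Δ. U3A3U1, U1A2U2, U2A3U1 and U1A4U1 had 41, 36, 27 and 29 reads in wt and 0 in cid14Δ, where 0 allows up to 3 counts. The single-A members U4A1U1 (192 against 161 RPM), U5A1U1 (118 against 114) and U2A1U2 (101 against 84.7) were close in the 2 strains. Of 32 members with enough reads 17 were lower in cid14Δ and 0 higher, by the same size limit. That is 53.1% of the members, where 24.3% of all ends were lower and 20.8% higher.

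Members with 2 or more As were also fewer when cid14 was deleted in cells without mpn1. The A-then-U reads with 2 or more As were 12.1% of the class in cid14Δmpn1Δ, 2.97-fold below mpn1Δ, and went from 0.137% to 0.0386% of all reads, 3.55-fold lower and past the limit. Members with a single A were 0.244% and 0.280% of reads. U3A2U1 had 49.2 and 9.09 RPM in the 2 strains and U3A2U2 26.7 and 2.27. U4A2U1, with a longer leading run, had 144 and 93.2. Pure A-tailed ends with 2 or more As were also a smaller part of the pure A-tailed reads without cid14, at 2.70% against 6.58% in wt and at 4.56% in cid14Δmpn1Δ against 8.22% in mpn1Δ.

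Among the untagged libraries with PNK, the 3 Cid1-family deletions had the highest ratios of A-then-U to pure A-tailed ends, and cid11Δ and cid16Δ were past the limit against wt in ends with 2 As, while cid12Δ was not. For 2 As after 4 to 6 Us, A-then-U reads per 100 pure reads came to 98.2 without cid11, 22.8 without cid12 and 114 without cid16, beside 13.7 in wt and 22.8 in wt without PNK. After 1 to 3 Us the values were 451, 122 and 515, beside 102 and 150. For a single A after 4 to 6 Us they were 1.44, 0.960 and 0.885, beside 1.82 and 1.62, so there the 3 deletions lay below both wt libraries. This order came from U4A1, with 1.198, 0.658 and 0.743 beside 2.12 and 2.45, the start of most of their single-A pure reads. For U5A1 the values were 2.20, 1.82 and 1.49 beside 2.04 and 1.53, and for U6A1 1.68, 1.21 and 0.655 beside 0.872 and 0.640, so the order did not hold at these starts. For a single A after 1 to 3 Us they were 45.5, 22.5 and 31.2, beside 15.3 and 25.0. Ends with 2 or more As were a larger part of the class in all 3, with 66.9% for cid11Δ, 70.1% for cid12Δ and 80.3% for cid16Δ, against 47.6% in wt and 62.2% in wt without PNK. With 3 or more As after 4 to 6 Us the ratios were 126, 14.4 and 104, beside 27.0 and 49.1, and after 1 to 3 Us 237, 56.8 and 202, beside 59.9 and 113. For 2 or more As, then, cid11Δ and cid16Δ lay above both wt libraries. For 3 or more As cid12Δ lay below both after 4 to 6 Us. After 1 to 3 Us its interval overlapped that of wt (54.1 to 59.5 against 52.7 to 68.0).

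U3A2U1 was the first or second member of each of the 3 strains. It led in cid12Δ (507 reads, 128 RPM) and cid16Δ (839, 230 RPM), and had 437 reads (156 RPM) in cid11Δ, where U3A1U2 led with 443. Against 67.5 RPM in wt and 378 in wt without PNK, the U3A2U1 level thus lay between the 2 wt libraries in all 3 deletions. U5A1U1 had 37.2, 43.1 and 30.4 RPM, below wt (118) and wt without PNK (297). Of the members with enough reads against wt, 22 of 72 were higher and 5 lower in cid11Δ, beside 24.6% of all ends higher and 37.5% lower. In cid12Δ 9 of 86 were higher and 9 lower, beside 45.3% and 10.1% of all ends. In cid16Δ 26 of 73 were higher and 9 lower, beside 23.1% and 33.8%. The members' share of higher ends was 30.6% in cid11Δ, 10.5% in cid12Δ and 35.6% in cid16Δ.

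In cid16Δ few U runs after the As were of 3 or more nt. Of its A-then-U ends with a single A run and a single U run, 65.1% of reads closed with 1 U, 32.3% with 2 and 2.62% with 3 or more. Runs of 3 or more were 10.7% in cid11Δ, 11.01% in cid12Δ, 12.8% in wt and 14.6% in wt without PNK. The cid16Δ value was 4.09-fold below cid11Δ, 4.20-fold below cid12Δ, 4.89-fold below wt and 5.56-fold below wt without PNK, past the limit each time. Ends with 1 U were as large a part in mpn1Δ (64.1%) and cid14Δmpn1Δ (65.4%), and runs of 3 or more were rarer still in mpn1Δ tU6-C36A (1.93% endogenous, 1.45% tagged). The longest run in cid16Δ was 5 nt, in the deepest but 1 of the untagged libraries, against 12 in cid11Δ, 11 in cid12Δ and 8 in wt. This measure was chosen after its values were seen, and it rests on 1 cid16Δ library.

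Among single members the pattern was not uniform. U5A1U3 had 1 read in cid16Δ (0.274 RPM) and 17 in each of cid11Δ and cid12Δ (6.08 and 4.29 RPM), and U6A1U3 had 0, 7 and 9. U1A1U3 was closer, with 166 reads (45.5 RPM) for cid16Δ, 164 (58.7 RPM) for cid11Δ and 210 (52.9 RPM) for cid12Δ, the lowest RPM again in cid16Δ. The single-U members U3A3U1 (166 RPM against 123 and 97.3) and U1A4U1 (128 against 86.2 and 36.6) were highest in cid16Δ.

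Leaving out PNK gave more A-then-U ends in wt. Their share was 1.28% (17604 reads) without PNK against 0.237% with it, 5.39-fold higher and past the limit, while pure A-tailed ends went from 4.55% to 14.6%. The ratio to A-tailed ends, 8.71 against 5.20, was 1.67-fold higher and not past the limit. U3A1U2 was the commonest end without PNK, with 847 reads (614 RPM against 78.0 with PNK). In rrp6Δ the share without PNK was 1.27-fold and the ratio 0.899-fold that with PNK, and neither passed the limit. The 2 wt libraries also differed in N calls (0% and 0.0244% of reads), and the part of the set in the wt difference was not tested.

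In the tagged strains a few ends held most of the A-then-U reads. In tU6-C36A the tagged U6 had 3.76% A-then-U reads, the highest of all files, and the endogenous U6 0.168%. U3A2U1 was 40.5% of them in the tagged file (9008 reads) and 49.8% in the endogenous file (473 reads), and U5A1U1 was 12.9% and 10.5%. Both files of this strain thus led with the same end. The tagged wild-type U6 of tU6-wt had 0.597%, led by U1A2U2 with 1115 reads, against 0.0967% for the endogenous U6.

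Without mpn1 the leading ends were others. In mpn1Δ tU6wt the tagged U6 had 0.723% A-then-U reads, of which U5A1U3 held 46.3% (3192 reads) and U5A2U2 29.4%, and 60.6% of its single-run ends closed with 3 or more Us. Its endogenous U6 had 0.370%, with U5A1U1 at 51.2% (774 reads) and U5A1U3 at 3.11%. In mpn1Δ tU6-C36A the tagged U6 had 0.235%, of which U5A1U1 held 68.8% (1627 reads). The endogenous U6 of that strain had 0.373%, of which the single end U1A7U1 held 64.3% (1426 reads), an end with 94 reads in the tagged file and 93 or fewer in any other. Taken over the 4 strains, tagged minus endogenous U6 was 1.08 ± 1.70 points in share (SD, n = 4), higher in 3 of 4, with an exact two-sided sign-flip p of 0.25, where 4 strains can reach no less than 0.125. For the ratio the difference was 12.6 ± 18.1 per 100 A-tailed reads (SD, n = 4, exact p = 0.25), higher in 3 of 4. The 2 files of a strain shared 31 to 43 members, 73.8% to 87.8% of those in the endogenous and 44.3% to 57.4% of those in the tagged file.

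Many of these ends lie 1 base away from an abundant pure end, so the same positions were read for the other bases. In T runs with a single foreign base inside, wt had 1000 reads with A, 579 with C and 446 with G, and mpn1Δ 2453, 251 and 151. In cid14Δ the reads were 422, 456 and 163, so in wt and cid14Δ A did not exceed C and G together. Reads for A, C and G numbered 2691, 1210 and 150 without cid11, and 2198, 1310 and 152 without cid16. For A tails followed by U, C or G, wt had 993, 302 and 214 reads, cid11Δ 4254, 87 and 293 and cid16Δ 7357, 122 and 500. In these last 2 strains U after an A tail was over 11 times as frequent as C and G together. In cid12Δ it was 1.87 times as frequent (4517, 352 and 2067 reads), near the 1.92 of wt. In mpn1Δ it was less frequent than C (2499, 3938 and 1210 reads). This was not particular to mpn1Δ. U was also below C in rrp6Δ (1108 against 1445 reads), cid14Δ (225 against 252), mpn1Δrrp6Δ (1405 against 2894) and cid14Δmpn1Δ (809 against 1992). The same held for rrp6Δ without PNK (1319 against 2037) and the endogenous U6 of mpn1Δ tU6wt (1001 against 2724). Ends that differed by 2 or more bases from every pure end of their length made up 18.7% of the A-then-U reads in wt, 14.3% in mpn1Δ, 4.32% in cid14Δ and 22.6% in cid16Δ. How many reads of single-A members come from a wrong base was not tested.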

How the data were processed

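The deposited files hold counts: a line pairs a U6 3′ end sequence with its read number, with no normalization. Per the labels' protocols, a 3′ adapter (120 pmol) was joined to 3 µg of RNA, and 1 µg of the product was reverse transcribed and amplified with a U6 or tagged-U6 primer. CASAVA 1.8.2 and cutadapt are named per the submitters' processing notes, with no role given. How reads were filtered, which genome build served and how endogenous was parted from tagged U6 is not given in the sources used here. The tagged file was told by the word exogenous in its name. Reads without an end sequence were left out of all totals.

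Shares, ratios to pure A-tailed ends and exact 95% intervals were computed with Python 3.11.15, NumPy 2.4.6 and SciPy 1.17.1. A single-library difference needed 2-fold and intervals apart, with a count of 0 set to 3, and single ends needed 20 reads over both libraries. Tests were exact sign-flip tests over pairs and an exact permutation test over 1287 regroupings, adjusted by Benjamini-Hochberg over 2 outcomes. The code was tested on simulated data. Members, lists and tests were chosen with earlier results of these data known. Ends named were the 3 commonest of each file, those with at least 5% of the A-then-U reads of a file, and, for each deletion and mpn1 pair, the 3 that gained and the 3 that lost most.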

Additional observations from a re-analysis of the deposited data

Results flagged for a closer look

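Of 16 sets of 4 to 8 files examined for a value far from the rest, 3 held one, where chance gives about 1 set in 20. The A-then-U share of 0.319% in cid14Δmpn1Δ lay apart from the other 4 libraries without mpn1, which were close together at 0.370% to 0.381%. It was 1.19-fold below mpn1Δ, which was not past the limit. The share of 3.76% in the tagged U6 of tU6-C36A was far above the other tagged files. In mpn1Δ tU6wt 32.4% of the endogenous A-then-U reads had 2 or more As, far below the other 3 endogenous files of tagged strains.

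Of 28 pairs of effects, 6 went in opposite directions with both effects at least 1.2-fold. Further pairs had opposite directions with a smaller effect on 1 side and were not counted. These differences between effects were not tested, since each rests on single libraries. C36A in tagged U6 went with a 6.30-fold share and a 2.91-fold ratio to A-tailed ends with mpn1, and with a 0.324-fold share and a 0.353-fold ratio without it. Deletion of mpn1 went with a 1.21-fold share in tagged wild-type U6 and a 0.0624-fold share in tagged C36A. Final runs of 3 or more Us were 4.90-fold as frequent without mpn1 in tagged wild-type U6 and 0.266-fold in C36A. Tagged against endogenous U6 with C36A gave a 22.3-fold share and a 12.0-fold ratio with mpn1, and a 0.630-fold share and a 0.679-fold ratio without it. The 3 commonest ends of each tagged file held 37.9% to 87.9% of its A-then-U reads.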

How the results depend on the processing

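The labels give no shared replicate numbers, so libraries were not paired by replicate. The mpn1 pairs are pairs of genotypes, and tagged and endogenous U6 were paired by strain. The 29 results were recomputed in 347 settings, of which 311 kept their side of the threshold or limit, and their direction where past it. Where neither value was past it, a change of direction was not counted as a change. Leaving out any 1 of the 13 libraries kept both calls of the 5 against 8. Causes of the other changes were not tested, except that fewer libraries raise the smallest p. Depth limits the rare ends, as 524 of 1227 had 1 read, and 1 library per strain limits every single-library value. Alternatives using 2 or more bases from pure ends or leaving out the commonest end were chosen after seeing the data.

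For 5 libraries without mpn1 against 8, the share difference was 0.835 with each end of 2 or more reads counted once (exact permutation p = 0.413), 0.0165 with 2 or more As (p = 0.733), 0.00321 with ends 2 or more bases from pure ends (p = 0.828), 0.0440 without the commonest end (p = 0.416), 0.140 in the untagged set with almost no N calls (p = 0.1, the smallest it allows) and 0.239 in tagged strains (p = 0.333, likewise). The ratio difference was -27.2 with ends counted once (exact permutation p = 0.584), -74.8 with 2 or more As (p = 0.0536), -2.18 in the untagged set (p = 0.1) and -2.68 in tagged strains (p = 0.333). Over the 5 pairs it turned to 19.3 with ends counted once (exact sign-flip p = 0.5).

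Counting ends once compares numbers of distinct ends at unequal depths, a different quantity from the read values. With ends counted once, the fold against wt turned for the ratio in mpn1Δ (1.30), rrp6Δ (1.09) and cid16Δ (0.966) and for the share in cid12Δ (0.403). It no longer passed the limit for the share (0.502) and ratio (0.587) in cid14Δ and the ratio in cid11Δ (1.57). With a leading run of 4 to 7 Us the mpn1Δ share passed the limit (2.99), and the cid14Δ share (0.612) and ratio (0.505) and the ratios of cid11Δ (1.50) and cid16Δ (1.54) did not. With 2 or more As the share passed it in cid16Δ (2.25) and for cid14 without mpn1 (0.282). Against wt without PNK the shares of cid11Δ (0.246), cid12Δ (0.187) and cid16Δ (0.248) turned, and the ratios of cid11Δ (1.54) and cid16Δ (1.75) did not pass. With ends 2 or more bases from pure ends, the ratio in cid12Δ (2.12), the share (0.238) and ratio (0.265) for cid14 without mpn1 and the ratio for wt without PNK (3.04) passed the limit. The part with 2 or more As did not, for cid14 with mpn1 (0.787) and without it (0.920). That set leaves out ends with a single A between U runs, so this part cannot decide the cid14 difference.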
